A study of Mus musculus with 3 samples.

Results

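The ETS transcription factors share a DNA-binding fold, the ETS domain, and 10 of their genes were followed here in cells of the mouse ureteric duct: Etv1, Etv4 and Etv5 of the Pea3 group, the ternary complex factors Elk1, Elk3 and Elk4, the Ras-responsive factors Ets1 and Ets2, and the repressors Etv3 and Etv6. The members were taken by name. Each was read from the probe set that the platform annotation ties to that symbol alone, using the brightest where there were several. All 10 were measured, by 12 probe sets, among 19938 genes in all. The cells came from CD-1 embryos at 10.5 days post coitum (Theiler stage 18) that carried the transgene Tg(Hoxb7-EGFP)33Cos, in which the Hoxb7 promoter drives green fluorescent protein in the nephric duct and the ureteric bud that grows from it. Microdissected, trypsinized and fluorescence-sorted duct cells gave 3 samples, each from 1 duct and described as not pooled, and each was hybridised to 1 Affymetrix array after 1 round of amplification. They form 1 group, numbered 1 to 3, of unknown sex and with no control, so the only comparison the design allows is with the background of each array. The labels do not say whether the samples came from separate embryos, and the spread between them may be technical.

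In the kidney, GDNF from the mesenchyme binds the receptor tyrosine kinase Ret on the duct, and the signal passes through adaptors and Ras to the Erk kinases. Etv4 and Etv5 are known as transcription factors that act below Ret in the tip of the ureteric bud and are needed for its branching. Erk also phosphorylates the ternary complex factors, which sit on DNA beside the serum response factor, and Ets1 and Ets2. The repressor Capicua binds the Pea3 genes and holds them down until Erk relieves it, and the ubiquitin ligase built around Cop1 marks Pea3 proteins for breakdown.

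Promoters of Etv5, Etv3 and Elk4 are shown because they are the members whose windows matched at least 1 of the motif spellings searched here, for ETS factors and for Capicua. The reference table (RefSeq, GRCm38.p6) gave 12 start sites for 8 members. It gave none for Etv4 and Ets1, so their promoters were not searched. The 250 bases before each were searched on both strands for the ETS core GGAAGT and for a Capicua octamer, spelled TGAATGAA or TGAATGAG or TGAATGGA or TGAATGGG. Each sequence runs 5′ to 3′ on the strand of its gene and ends at the base before the start site. Capitals mark a match, on either strand.
Etv5, upstream start, chr16:22439571-22439820, minus strand: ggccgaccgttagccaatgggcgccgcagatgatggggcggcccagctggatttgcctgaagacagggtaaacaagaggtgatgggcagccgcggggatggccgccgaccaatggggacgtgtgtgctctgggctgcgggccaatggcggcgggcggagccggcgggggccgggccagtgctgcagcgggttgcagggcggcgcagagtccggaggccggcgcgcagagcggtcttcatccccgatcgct
Etv5, downstream start, chr16:22438369-22438618, minus strand: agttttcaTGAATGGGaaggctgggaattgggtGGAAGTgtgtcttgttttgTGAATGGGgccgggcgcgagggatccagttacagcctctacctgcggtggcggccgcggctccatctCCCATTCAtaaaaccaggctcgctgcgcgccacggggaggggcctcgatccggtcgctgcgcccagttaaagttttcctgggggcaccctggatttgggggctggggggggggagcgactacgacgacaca
Etv3, chr3:87525328-87525577, plus strand: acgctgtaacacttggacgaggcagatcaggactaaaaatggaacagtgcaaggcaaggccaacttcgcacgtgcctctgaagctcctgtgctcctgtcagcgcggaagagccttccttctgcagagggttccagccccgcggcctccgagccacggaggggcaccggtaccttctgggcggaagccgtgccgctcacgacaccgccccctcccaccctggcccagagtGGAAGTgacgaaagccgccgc
Elk4, first start, chr1:132007370-132007619, plus strand: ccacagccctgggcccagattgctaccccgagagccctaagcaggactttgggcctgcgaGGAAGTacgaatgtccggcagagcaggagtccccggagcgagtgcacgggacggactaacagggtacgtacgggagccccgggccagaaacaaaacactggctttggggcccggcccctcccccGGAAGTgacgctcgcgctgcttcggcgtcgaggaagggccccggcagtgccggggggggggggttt

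The downstream Etv5 window held 3 Capicua octamers, each spelled TGAATGGG, with 2 on the strand of the gene and 1 on the other strand. They lie 242 to 235, 198 to 191 and 131 to 124 bases before the start. An ETS core lies between the first and the second of them, 217 to 212 bases before the start. Of 32851 windows of this length, 1267 (3.86%) held at least 1 such octamer and 14 (0.0426%) held 3 or more. The upstream Etv5 window, 71.2% G and C, had no match to either motif. Those letters are not in that window, which says nothing about Capicua elsewhere at the gene.

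The ETS core was present in 5 of the 12 members' windows, those of 3 genes (Etv3, Etv5 and Elk4), against 6485 of all 32851 windows (19.7%). Most of these 5 windows belong to starts of Elk4 and are not independent. Counted by gene, the core was present for 3 of 8 members and for 6008 of 27025 genes (22.2%). The Elk4 window shown held 2 cores, of which the one nearer the start, at 66 to 61 bases, forms the longer ETS consensus CCGGAAGT, found in 2.88% of windows. The other Elk4 starts had 1 core each. The Etv3 window held 1 core, 21 to 16 bases before the start. The windows of Etv1, Etv6, Ets2, Elk1 and Elk3 matched none of these spellings, and looser forms of either motif were not searched. A match of letters describes the sequence and does not show binding in these cells.

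Of the 10 members, 8 were above the background of the arrays and 2, Etv1 and Etv3, were not called. All genes together were called in 56.2% of cases (11203 of 19938), so most genes on these arrays pass this test. Background was the 95th percentile of 1212 probe sets of odorant and pheromone receptors (olfactory and vomeronasal), genes of sensory neurons, and lay at 5.69, 5.73 and 5.70 log2 units on arrays 1, 2 and 3. A gene was called when its log2 signals exceeded that cutoff at a Benjamini-Hochberg adjusted p under 0.05 in a one-sided limma test. Receptor probe sets themselves were called in 4.37% of cases. The cutoff was set from these same probe sets, so that share is largely fixed in advance and is not an independent error rate. At a cutoff of the 99th percentile, 36.1% of all genes were called and 7 members, and a cutoff 1 log2 unit higher gave 28.4% of all genes, with the same 7 members. These 7 were Etv5, Etv6, Ets1, Ets2, Elk1, Elk3 and Elk4.

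**Figure D1:**
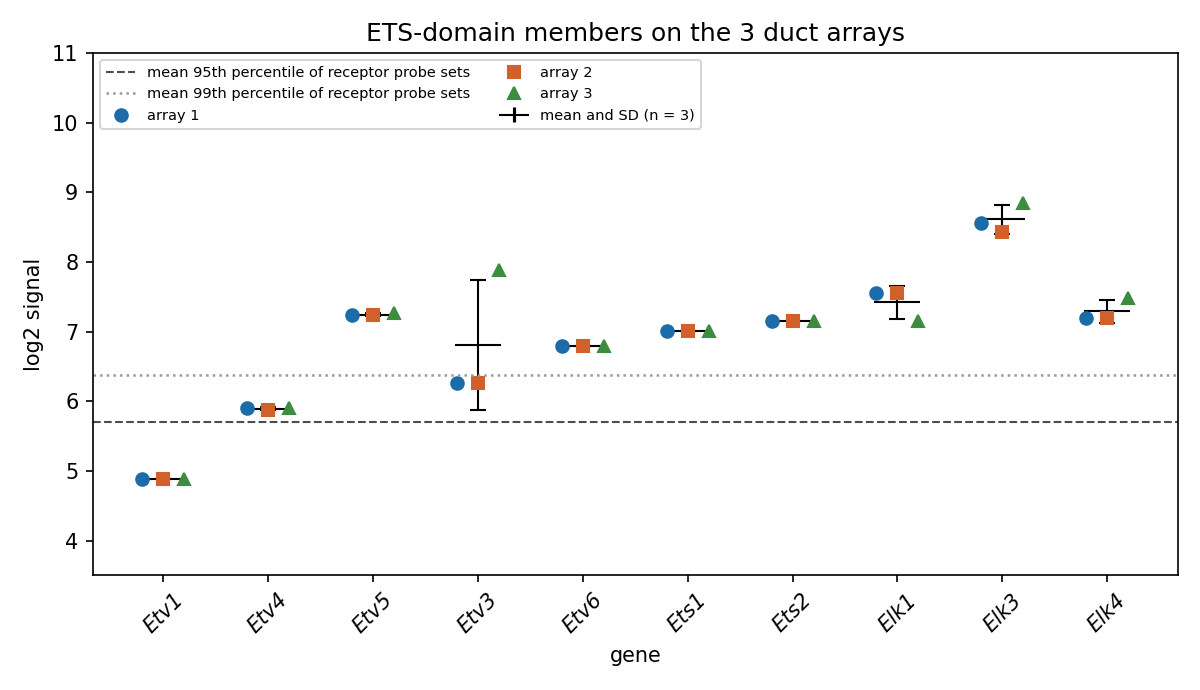
Log2 signal of each of the 10 members (x axis) on arrays 1, 2 and 3 (points), with the mean and SD (n = 3) in black and the mean 95th and 99th percentile cutoffs of the receptor probe sets as dashed and dotted lines. Etv1 lies below the lower line on every array, Etv4 lies between the lines, and Etv3 reads 7.88 on array 3 against 6.27 on arrays 1 and 2.

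Signals are log2 values, given for arrays 1, 2 and 3 in that order, and a height is the mean signal minus the cutoffs with the standard error of the limma fit. Many deposited values are identical between arrays: 50.8% of genes hold 1 value on all 3 arrays. Among the members 4 do (Etv1, Etv6, Ets1 and Ets2), 4 share a value on arrays 1 and 2 (Etv3, Etv5, Elk1 and Elk4), Etv4 shares one on arrays 1 and 3, and only Elk3 has 3 different values. For a tied gene the standard error comes from the cutoffs and from moderation, so it is too small. Probe sets differ in affinity, so the members are not ranked by transcript amount.

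Within the Pea3 group, Etv5 and Etv4 were above background and Etv1 was not. Etv5 read 7.23, 7.23 and 7.26. Its height was 1.54 ± 0.018 log2 units (SE, n = 3; limma adjusted p = 9.07e-06), well over the spread between arrays, and its mean was at percentile 76.0 of all genes. Etv4 read 5.90, 5.87 and 5.90, close above the cutoff on every array. With a height of 0.18 ± 0.022 (limma adjusted p = 0.00299) it passed, but it was at percentile 45.5 of all genes and was below the 99th percentile cutoff on all 3 arrays. Its call ended without array 3, where the height was 0.175. That fit gave every gene one spread. Etv1 read 4.89 on all 3 arrays, -0.82 log2 units from the cutoff, and was above it on 0 arrays.

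Etv5 and Etv1 each had a second probe set, and these differ in where their probe numbers fall. The numbers of this platform run largely by chromosome. The brighter Etv5 probe set (10438626) has 48 of its 50 nearest named neighbours on chromosome 16, where Etv5 lies. The dimmer one (10363901) read 6.04, 6.15 and 6.17, and 49 of its 50 neighbours are on chromosome 10. For Etv1 it is the brighter probe set (10406934) whose neighbours, 47 of 50, are on another chromosome, 13. The Etv1 probe set among genes of chromosome 12, its own chromosome, read 4.73, 4.73 and 4.85 and was not called either. Whether the probe sets numbered elsewhere detect these genes was not tested.

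All 3 ternary complex factors were above background, and all stayed so at every cutoff tried. Elk3, known as a repressor until Ras signalling activates it, read 8.56, 8.43 and 8.84. Its height of 2.90 ± 0.10 (limma adjusted p = 0.000113) placed it at percentile 90.4 of all genes. Elk1, the prototype ternary complex factor, read 7.55, 7.55 and 7.15, lowest on array 3, with a height of 1.71 ± 0.11 (limma adjusted p = 0.000505). Elk4 read 7.20, 7.20 and 7.48, highest on array 3, with a height of 1.59 ± 0.079 (limma adjusted p = 0.000281). The ranges over the arrays, 0.41 for Elk3, 0.40 for Elk1 and 0.28 for Elk4, were smaller than each gene's height above the cutoff.

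Ets1 and Ets2, closely related activators with an Erk site, read 7.01 or 7.15 with no difference between arrays. Ets1 stood at 7.01 on each array, 1.31 ± 0.015 above the cutoff (limma adjusted p = 8.59e-06). Ets2 stood at 7.15 on each, 1.45 ± 0.015 above it (limma adjusted p = 7.04e-06). Because each holds 1 value, no spread between samples can be given for these genes.

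Of the repressors, Etv6 was above background and Etv3 was not called. Etv6, which represses through a self-associating pointed domain, read 6.79 on all arrays, with a height of 1.08 ± 0.015 (limma adjusted p = 1.27e-05). Exactly that value was also held by 19, 21 and 14 other named probe sets on arrays 1, 2 and 3. On array 3 the value of Elk1 was held by 11 others and that of Elk4 by 15, and these are the values that set array 3 apart for those genes. Whether values held in common like this belong to Etv6, Elk1 and Elk4 themselves was not tested. Etv3, a repressor linked to growth arrest, read 6.27, 6.27 and 7.88. It was above the 95th percentile cutoff on 3 arrays and above the 99th only on array 3, and with an SD of 0.93 it missed the threshold (height 1.10 ± 0.43; limma adjusted p = 0.0712). Etv3 was the 1 member with a range over 1 log2 unit, which 3.15% of all genes had. It was called without array 1 (height 1.36) and without array 3 (0.56), and not without array 2.

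**Figure D2:**
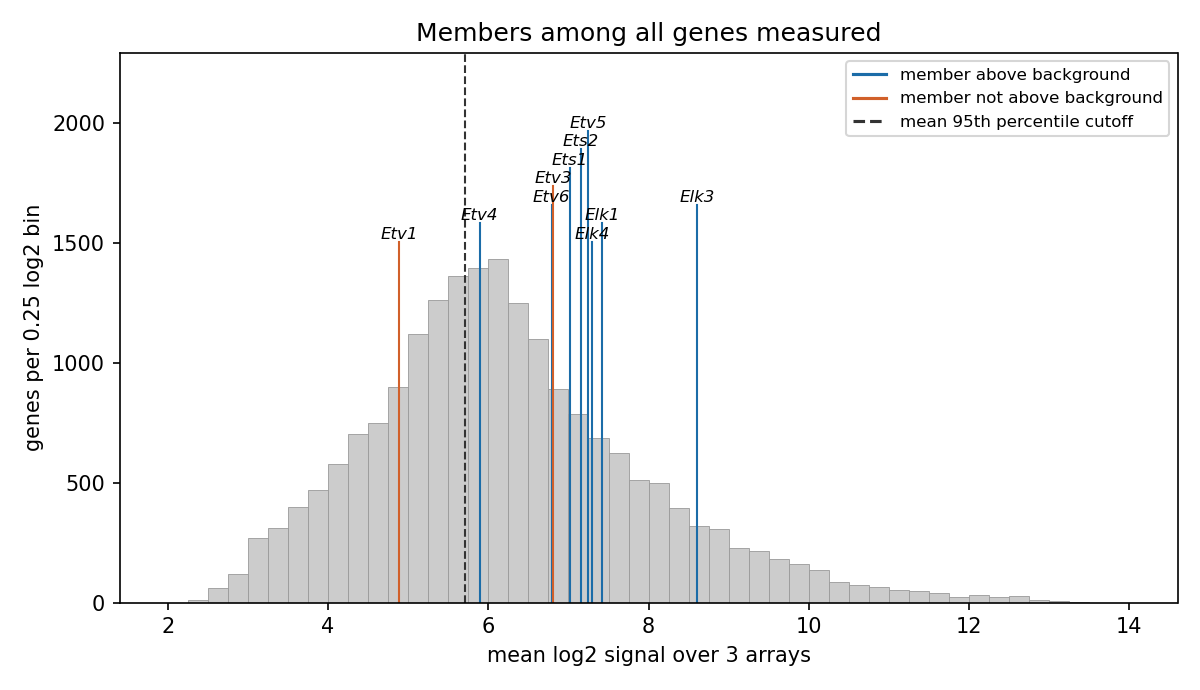
Number of genes per bin of 0.25 log2 units (grey bars, y axis) by mean log2 signal over the 3 arrays (x axis), with a line for each member, blue where called and orange where not, and the mean cutoff dashed. 9 of the members lie to the right of the cutoff, and Elk3 is farthest to the right.

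The median of the members' means was 7.08, against 6.04 for all 19938 genes. Across arrays the members' medians were 7.08, 7.08 and 7.15. Array 3 was the highest for 4 members (Etv3, Etv5, Elk3 and Elk4), and 13.1% of all genes were strictly highest there. On array 2, 2 members (Etv4 and Elk3) were strictly lowest, against 10.4% of all genes. Genes with 1 value on all arrays, 4 of the members and 50.8% of all genes, cannot be strictly highest or lowest but are counted in these shares.

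The rest of the ETS family gave 10 called genes of 15 measured, of 16 listed, with a median of 6.55. The share of 66.7% stands beside 56.2% of all genes and 80.0% of the members. Among broadly expressed factors, Gabpa, a regulator of mitochondrial and housekeeping genes, read 8.85 on all arrays. Elf2 read 7.06 on all arrays, and Elf1 read 6.59, 6.59 and 6.84. Erf, a repressor that Erk drives out of the nucleus, read 7.15, 7.15 and 6.91. Elf4 read 6.61, 6.23 and 6.80. All of these passed.

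The ETS factors known from epithelia divided. Spdef, known from secretory epithelium, read 6.74 on all arrays, and Elf3, an epithelial factor, read 6.01, 6.01 and 6.02; both passed, the second not at the 99th percentile. Ehf at 5.39, 5.39 and 5.41 and Elf5 at 5.24 on all arrays did not pass. Of the factors of blood cells, Spi1 at 5.55, Spib at 5.48 and Spic at 3.98, each with 1 value, did not pass. Values shared with many other probe sets were frequent here: on array 1, 100 others held the value of Ehf, 77 that of Spi1 and 58 that of Spib.

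**Figure D3:**
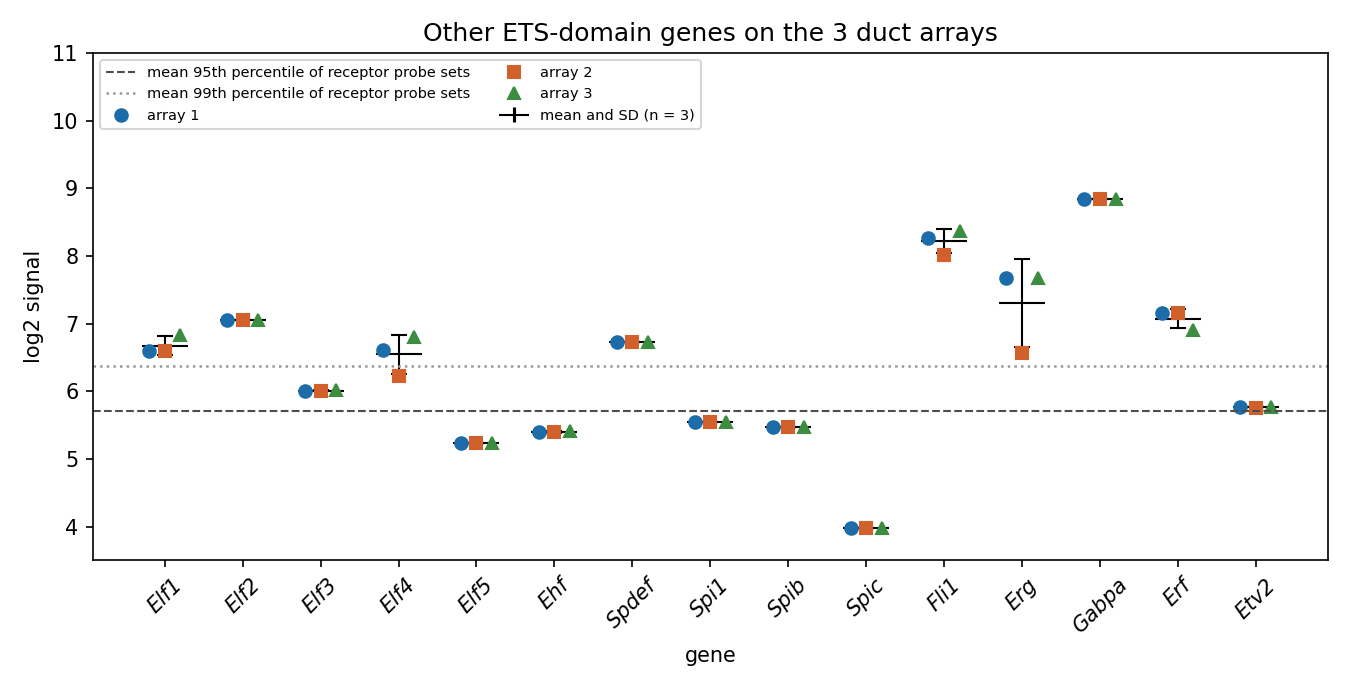
Log2 signal of the 15 other ETS-domain genes (x axis) on arrays 1, 2 and 3 (points), with the mean and SD (n = 3) in black and the mean 95th and 99th percentile cutoffs as dashed and dotted lines. Gabpa and Fli1 lie highest, Spic lies lowest, and Erg reads 6.56 on array 2 against 7.68 on the others.

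Fli1 and Erg, ETS factors of endothelium, both passed. Fli1 read 8.26, 8.02 and 8.36, and Erg read 7.68, 6.56 and 7.68, each lowest on array 2. Etv2, which starts the endothelial and blood programme in the embryo, read 5.77, 5.76 and 5.77, with a height of 0.059 ± 0.017 (limma adjusted p = 0.0315). It was below the 99th percentile cutoff on all arrays, and its call ended without array 1 and without array 3. It ended too when only the olfactory receptors set the cutoff, and where tied probe sets took the spread of untied ones.

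Markers of endothelium were present in these sorted samples and differed between the arrays. Of 14 endothelial markers 13 were called, against 56.2% of all genes, and 13 were strictly lowest on array 2. Emcn, an endothelial sialomucin, read 10.40, 9.28 and 10.53, and Cdh5, the cadherin of vessels, 9.31, 8.44 and 9.54, while Sox17 at 5.86, 5.77 and 5.77 was lowest and not called. The median of these markers was 7.69, 7.12 and 7.62. Beside that, Erg was -1.12 log2 units on array 2 relative to the mean of the other arrays, and Fli1 was -0.29. The member Elk3, which is known in endothelium too, was -0.27. Elf4, given above among broadly expressed factors, was -0.47. In all, 4 of the 15 other ETS genes were strictly lowest on array 2. The median of that difference was -0.53 for the endothelial markers, -0.03 for 14 duct markers and -0.0077 for the members. The duct median includes 6 markers with 1 value on all arrays. Another 6 of the 14 duct markers (42.9%) were strictly lowest on array 2, against 10.4% of all genes. Of all genes, 50.8% held 1 value on all 3 arrays and could not be strictly lowest. Among the endothelial markers 0 did, so these shares have unlike bases. Krt8 at -0.35, Lhx1 at -0.29, Gata3 at -0.22 and Cdh16 at -0.22, named after their values were seen, differed on array 2 about as much as Fli1 and Elk3. Ets1 and Etv6, also used by endothelial cells, held 1 value on all arrays. How much endothelial RNA added to the signals of Elk3, Ets1, Etv6, Fli1 and Erg was not tested. In such bulk samples fewer cells of a type and less RNA per cell cannot be told apart.

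**Figure D4:**
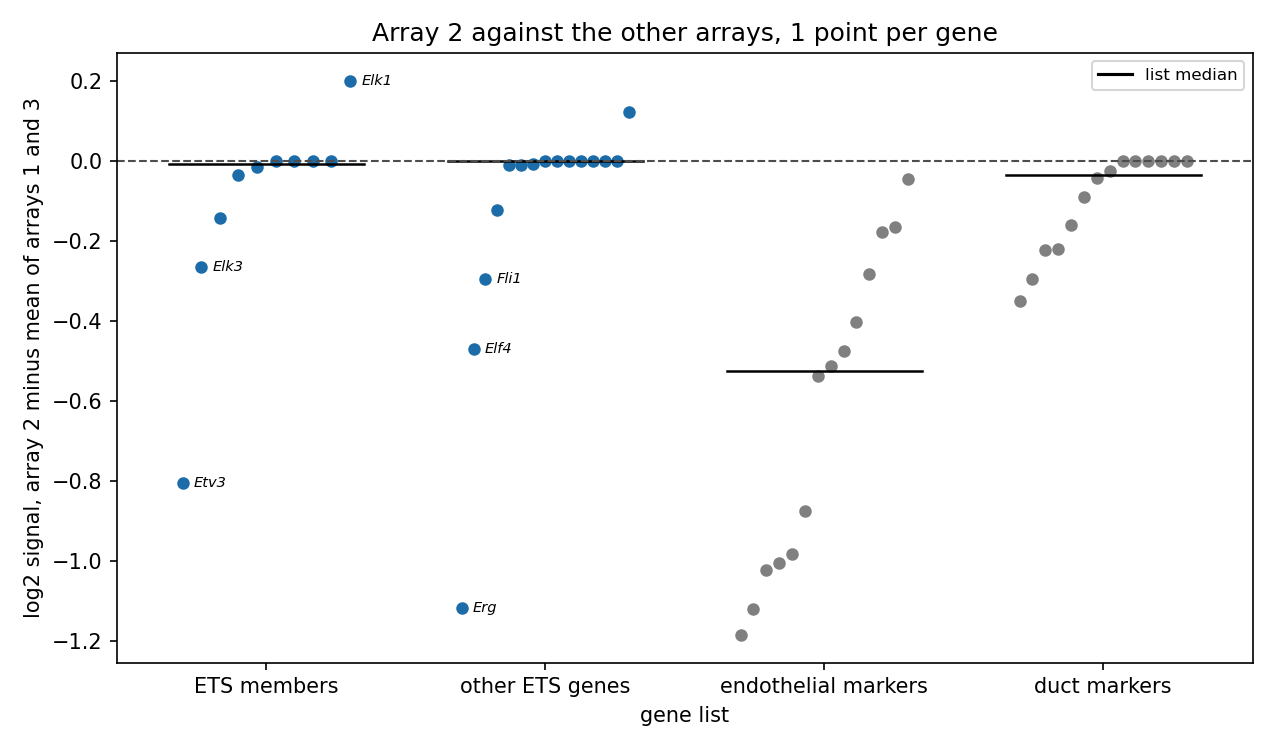
Log2 signal on array 2 minus the mean of arrays 1 and 3 (y axis), 1 point per gene, for the members, the other ETS genes, 14 endothelial markers and 14 duct markers (x axis), with a black line at each list's median. Etv3, Elk3, Erg, Fli1 and Elf4 lie below -0.2, and the endothelial median is -0.53. Etv3 read 6.27 on both array 1 and array 2, and its position comes from the 7.88 on array 3.

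Markers of the labelled cell type were present, and 14 of 14 duct markers were called, against 56.2% of all genes. Calb1 and Krt8 were the highest, at mean signals of 11.71 and 10.56, and Wnt9b was the lowest, at 6.96. The same 56.2% stands beside the counts of the marker lists below. Of 10 macrophage markers 1 was called, Cx3cr1 at 6.54. That value was also held by 36, 39 and 38 other named probe sets on arrays 1, 2 and 3. Cd68 at 6.31 ± 0.51 (SD, n = 3) and Adgre1 at 4.09 were not called, though Cd68 was above the cutoff on 3 arrays. Of 14 mesenchyme and stroma markers 5 were called, led by Cited1 at 7.71 and Col1a1 at 6.75, with Lum at 3.23. Of 7 red cell markers 2 were called, Epor at a mean signal of 6.02 and Gata1 at 6.06. Hbb-y at 10.02, 5.31 and 5.45 and Hba-x at 8.89, 5.97 and 5.84 were not called. Hba-x was above the cutoff on 3 arrays but had an SD of 1.72, and Hbb-y was above it on array 1 only. Rhag, at 3.97 on all arrays, was not called either. The medians over arrays 1, 2 and 3 were 4.97, 4.99 and 4.97 for the macrophage list and 5.27, 5.13 and 5.19 for the mesenchyme list. For the red cell list they were 6.03, 5.31 and 5.45. Its differences between arrays lay in the 3 globin genes, since Epor and Gata1 were slightly higher on array 3 and Klf1 and Rhag held 1 value. No member shows the globins' fall from array 1 to both other arrays.

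Upstream of the members, all 14 measured genes between Ret and Erk, of 20 listed, were called, against 56.2% of all genes. Their median was 7.30. Ret, the GDNF receptor, read 7.21, 6.89 and 6.89, and was highest on array 1. Its value on arrays 2 and 3 was also held by 30 and 27 other probe sets there. The Ras gene Nras read 10.60, 10.60 and 10.70, the phosphatase gene Ptpn11, which carries receptor signals towards Ras, 8.01, 8.01 and 7.94, and the Raf kinase gene Braf 7.68, 7.68 and 7.57. Gdnf, the ligand, known from mesenchyme, read 5.75, 5.83 and 5.83, and its call ended without array 2, without array 3, and under the same changes of background and tied spread as for Etv2. The adaptor gene Shc1 read 6.16 on all arrays. Neither Gdnf nor Shc1 passed at the 99th percentile. With the cutoff raised by 1 log2 unit 11 genes of this list were called, against 28.4% of all genes. Ret, Gdnf and Shc1 were not among the 11.

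Downstream, all 4 genes known to need Etv4 and Etv5 in the ureteric bud were called, against 56.2% of all genes. Their median was 7.87. The chemokine receptor gene Cxcr4 read 8.18, 7.85 and 8.17, and the matrix metalloproteinase gene Mmp14 8.002, 7.80 and 8.002. Met, the receptor of hepatocyte growth factor, read 7.81 on all arrays. Myb, a transcription factor gene of the bud tip, read 6.54, 7.001 and 6.67, highest on array 2, and was the 1 gene of this list not called with the cutoff raised by 1 log2 unit. Array 2 was strictly lowest for 2 of the 4, Cxcr4 and Mmp14, at -0.33 and -0.20 relative to the mean of the other arrays. The share of all genes strictly lowest there was 10.4%, which counts genes with 1 value on all arrays. How much endothelial RNA added to these signals was not tested. With 1 group, no dependence of the 4 genes on Etv4 or Etv5 could be examined.

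Of 16 measured partners of the members, of 18 listed, 14 were called and 2 were not, against 56.2% of all genes called. The partners' median was 6.98. Cop1, the ubiquitin ligase subunit that recognises Pea3 proteins, read 9.09, 9.16 and 9.09. Its other probe set read 8.89, 8.95 and 8.89, with 49 of 50 neighbours on the X chromosome while Cop1 lies on chromosome 1. Ddb1, an adaptor of the same ligase, read 10.03, 9.88 and 9.91, and Det1, a further subunit named after its value was seen, 5.78 on all arrays, just above the cutoff, with a call that ended without array 1, without array 3 and under the same changes of background and tied spread. The value of Det1 was also held by 82, 85 and 76 other named probe sets on arrays 1, 2 and 3. The coactivator gene Crebbp read 9.09, 9.09 and 9.06. The Capicua gene Cic read 6.72 on all arrays, with a height of 1.02 ± 0.015 (limma adjusted p = 1.45e-05). Cic and Etv5 were thus both called in these samples. Whether Capicua acts on Etv5 in these cells was not tested.

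Srf, the DNA-binding partner of the ternary complex factors, read 6.52 on all arrays, 0.81 ± 0.015 above the cutoff (limma adjusted p = 2.31e-05). Of its other cofactors, Mrtfa at 5.62 on all arrays was not called. Mrtfb, named after its value was seen, read 7.73, 7.45 and 7.68 from the brightest of 3 probe sets. Another of these read 7.97, 7.02 and 5.97. Atxn1, a partner of Capicua, read 3.78, 8.44 and 3.43, so that array 2 alone lay above the cutoff, and it was not called except without array 3, where all genes shared one spread. The other Atxn1 probe set read 4.598 on all arrays and shows no such rise. With the cutoff raised by 1 log2 unit 8 partners were called, against 28.4% of all genes. Srf and Cic were then not among the 8.

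All 8 immediate early genes known to have sites for the serum response factor and its ternary complex partners were called. All genes together were called in 56.2% of cases. The median of the 8 was 7.13. Egr2 read 9.82, 8.03 and 9.52, Egr1 8.19, 7.07 and 7.44, and Mcl1, a survival factor gene, 8.77 on all arrays. Ier2 read 7.39, 7.16 and 7.39 and Fos 6.55, 6.24 and 6.24. Egr3 at 6.95, Fosb at 6.87 and Junb at 6.11 held 1 value each. The value of Junb was also held by 61, 63 and 67 other named probe sets on arrays 1, 2 and 3. Neither Fos nor Junb passed at the 99th percentile. Array 2 was strictly lowest for 4 of the 8, against 10.4% of all genes, 6 of the 14 duct markers and 13 of the 14 endothelial markers. Genes with 1 value on all arrays, 4 of the 8 and 50.8% of all genes, cannot be strictly lowest, so these shares have unlike bases. The immediate early genes are also known to respond to the dissociation of tissue. The part of dissociation or of endothelial cells in their signal was not tested.

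**Figure D5:**
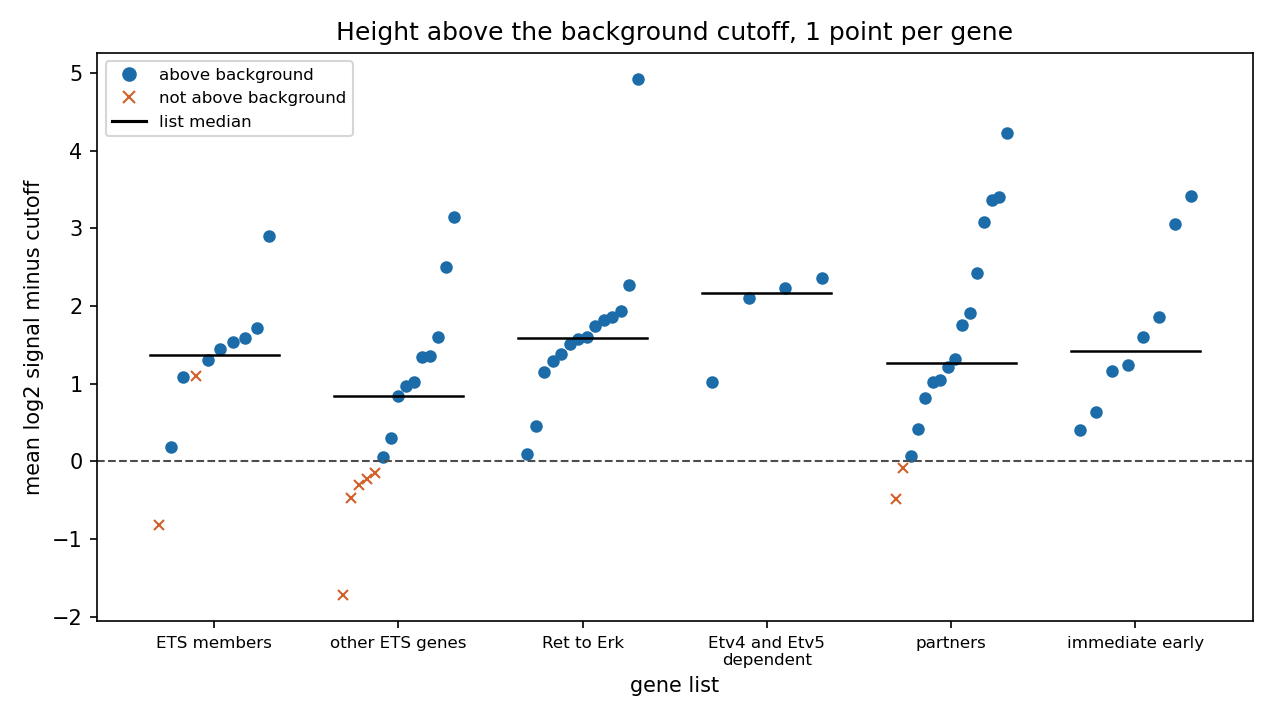
Mean log2 signal minus the mean cutoff (y axis), 1 point per gene, for the members, the other ETS genes, the genes from Ret to Erk, the genes that need Etv4 and Etv5, the partners and the immediate early genes (x axis), with called genes as blue circles, others as orange crosses and a black line at each median. The medians lie between 0.84 for the other ETS genes and 2.17 for the genes that need Etv4 and Etv5.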

How the data were processed

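The deposited table held log2 values of 35557 probe sets from 3 arrays. The values were summarised by the authors, with Affymetrix Expression Console per the submitters' processing notes, its version and algorithm not given in the sources used here. The log2 scale was read from the values. Symbols came from the platform annotation: 21789 probe sets had 1 symbol, and 1621 had several and were left out. Of the former, 21698 matched GRCm38.p6 genes by Entrez number.

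Log2 values minus each array's cutoff were fitted with an intercept across the 21789 probe sets in R 4.3.3 by limma 3.58.1, whose empirical Bayes step moderated the variances (1.13 prior degrees of freedom), and p-values were adjusted by Benjamini-Hochberg. The members and lists were chosen with earlier results of these data known. Text names all ETS genes, every gene of lists under 10 measured genes, otherwise the 3 highest, 2 lowest and Ret, Srf, Cic and Cop1, and of marker lists the 2 highest and the lowest. Genes outside this rule, such as Det1 and Mrtfb, were named after their values were seen. Krt8, Lhx1, Gata3 and Cdh16 were named for their difference on array 2, beside those of Fli1 and Elk3. Likeness to a member was not measured otherwise, since 3 arrays of 1 group give no usable measure. Alternatives changed the cutoff, background probe sets, tied spreads, probe set, moderation and arrays used. The number of arrays limits the precision. List genes lacking a single-symbol probe set were not analysed here.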

Additional observations from a re-analysis of the deposited data

How the results depend on the processing

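The count of members called was 7 to 9 under all alternatives run and 8 to 9 without any 1 array. At the 99th percentile cutoff 7190 genes were called in all, and 5653 at a cutoff 1 log2 unit higher, along with 4 other ETS genes, 8 partners and 5 immediate early genes. The other 72 of 77 alternative counts were within 1.5 times the reported count. Etv4 turned to -0.49 log2 units from the 99th percentile cutoff and to -0.82 from the raised one, and its call ended without array 3. Etv3 gained a call under 5 alternatives, including the 90th percentile cutoff (height 1.41) and the spread of untied probe sets. The other 102 of 110 alternative heights kept their direction and call. Without array 3 limma gave all genes one spread, so its calls ignore each gene's own. Of the called members Etv4 lies nearest to background. No paired analysis was possible because there is 1 group.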
